A study of Mus musculus with 4 samples.

Results

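Kinesins, cytoplasmic dyneins and dynactin were examined as a set of 59 genes among 19938 genes measured on arrays of RNA co-precipitated with an RNA-binding protein (RBP) in mouse fetal erythroid progenitors. The genes were taken by symbol (Kif, Klc, Dync, Dynl and Dctn stems) from probe sets annotated with a single gene. For a gene with several probe sets, the brightest by its mean over the 4 arrays was used. The choice therefore used the level and not the difference between antibodies, although the set was picked with earlier results of these arrays known. By role there were 14 mitotic kinesins (1 of them the pseudogene Kif4-ps), 13 transport kinesins, 3 kinesin light chains, 11 other kinesins, 12 dynein genes and 6 dynactin genes. No probe set carrying the symbol Klc2 alone was used here.

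In the RBP group, 2 arrays were hybridised with RNA pulled down by an antibody specific for the RBP, which the labels do not name. In the IgG group, 2 arrays were hybridised with RNA recovered with control rabbit IgG. All 4 samples came from C57BL/6 fetal liver at E14.5 (day of gestation) with no stated genetic change or drug. The cells had been depleted of lineage-positive, Sca-1, CD16/32, CD41 and CD34 positive cells and then sorted as c-kit positive with low CD71. The labels do not say whether replicates came from separate pools of embryos, so the p-values reflect only how far these arrays vary, and that variation may be technical. Unprecipitated RNA was not analysed here, so a higher level in the RBP samples cannot be told apart from a different recovery of RNA per bead or a different amount of the transcript in the lysate, and fewer cells of a type cannot be told apart from less RNA per cell.

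Kinesins and dyneins are motors that use ATP to step along microtubules. Most kinesins walk towards the plus end, outward from the cell centre, whereas cytoplasmic dynein walks towards the minus end and needs its cofactor dynactin to move most cargo. One class of kinesins builds and drives the mitotic spindle and the cleavage of the cell, and another carries vesicles, organelles and ciliary components. Erythroid progenitors divide rapidly before they leave the cell cycle, and in humans inherited changes in KIF23, a kinesin of cytokinesis, cause a congenital anaemia with large multinucleated erythroblasts.

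All 7 early erythroid markers lay above background, defined as a mean log2 level over 5.37, the 95th percentile of 1227 chemosensory receptor genes that these cells are not known to use. Their median level was 10.17 and 10.19 on the RBP arrays and 9.59 and 9.82 on the IgG arrays, and 3 of 7 (Kit, Epor and Tal1) were higher in the RBP group. Of all genes, 57.8% were called higher at mean levels of 9 to 10 and 47.2% from 10 up, where these markers lay. Granulocyte and mast cell markers were also present, 4 of 5 above background, with medians of 8.62 and 7.69 on the RBP arrays and 9.50 and 7.83 on the IgG arrays. Of these 1 of 5, Elane, was lower in the RBP group. Above background too were 4 of 4 lymphoid, 4 of 5 endothelial or stromal, 2 of 5 macrophage, 2 of 4 hepatocyte and 2 of 4 megakaryocyte markers. Of the megakaryocyte markers 1 of 4, Gp9, was higher, and 0 of 4 hepatocyte, 0 of 5 macrophage, 0 of 4 lymphoid and 0 of 5 endothelial or stromal markers were called by limma in either direction (at an unadjusted p under 0.05, 0 higher and 1 lower, 0 and 0, 1 and 0, and 1 and 1). Replicate 1 read above replicate 2 in both groups for all 5 granulocyte and mast cell markers, 4 of 5 macrophage, 3 of 4 hepatocyte, 3 of 4 lymphoid and 3 of 5 endothelial or stromal markers, and for 0 of 7 erythroid markers. With the replicate number as a block, 2 macrophage markers were higher, 2 lymphoid higher and 1 lower, and 2 endothelial or stromal higher and 1 lower. In that fit 4 erythroid markers and 1 megakaryocyte marker were higher, and 2 granulocyte and mast cell markers were lower. The part of these cells in the results was not tested. The arrays differed in spread: the interquartile range over all probe sets was 3.73 and 3.61 in the RBP group and 2.91 and 2.87 in the IgG group. Pearson's r across genes, which are not independent replicates, was 0.993 between the RBP arrays, 0.977 between the IgG arrays and 0.952 to 0.959 between groups.

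Of the 59 motor genes, 31 were higher in the RBP samples than in the IgG samples and 1, the kinesin light chain gene Klc3, was lower (limma adjusted p under 0.05). The share called higher was 52.5% of motor genes, beside 23.8% of all genes, and the share of all genes called lower was 6.54%. The median RBP minus IgG difference was 0.76 on the log2 scale for motor genes and -0.02 for all genes. Both RBP arrays exceeded both IgG arrays for 41 motor genes (37.4% of all genes) and lay below both for 11 (36.2% of all genes), while the groups overlapped for 7. At least 2-fold higher without overlap were 19 motor genes (13.5% of all genes), and 0 were that much lower (1.23% of all genes). The count of motor genes called higher was 15 without RBP replicate 1 (8.65% of all genes) and 19 without RBP replicate 2 (10.3% of all genes). It was 32 without IgG replicate 1 (25.8%) and 29 without IgG replicate 2 (24.7%), and 4 genes, Klc3, Dynlrb1, Kif1a and Kif12, were called lower without IgG replicate 2 (14.6% of all genes). In each such fit 1 array stood alone for its antibody and was assumed to vary like the remaining pair, so a call gained that way rests on a single array of that group.

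**Figure D1:**
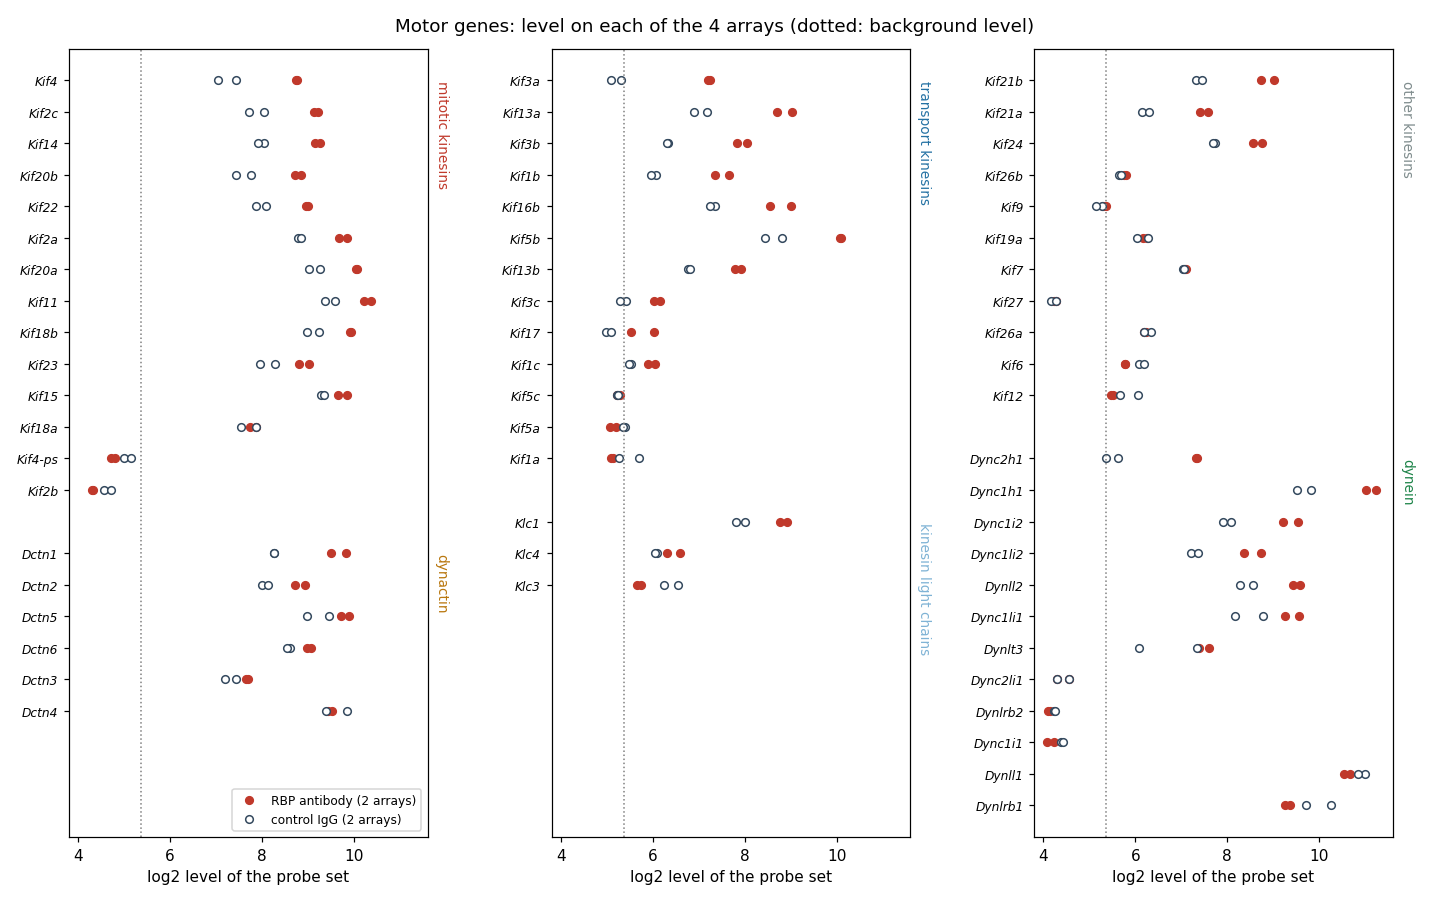
Log2 level of each of the 59 motor genes (x axis) on the 2 RBP arrays (filled points) and the 2 IgG arrays (open points), grouped by role, with the background level of 5.37 dotted. The filled points lie right of the open points for 41 genes, and the exceptions include Klc3, Dynll1 and Dynlrb1.

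By their mean over the 4 arrays 49 motor genes lay above the background level. Kif3a and Kif17 did so through the RBP arrays alone, with both IgG arrays under it. Kif3c had an IgG mean of 5.35, just under it, with IgG replicate 1 at 5.41. The 10 motor genes at or below background gave 0 calls by limma and also 0 at an unadjusted p under 0.05, with differences of -0.37 to 0.11, where 0.83% of all genes at such levels were called higher and 6.54% lower. These 10 were Kif4-ps, Kif2b, Kif5a, Kif5c, Kif1a, Kif9, Kif27, Dync2li1, Dynlrb2 and Dync1i1.

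The mitotic kinesins were mostly higher in the RBP samples, with 10 of 14 called higher, 0 lower and a median difference of 0.87. Over all genes 23.8% were called higher, and 56.4% to 57.8% at the mean levels of 8 to 10 at which most of these kinesins lay. The count was 3 of 14 after quantile normalization and 0 with the trend of all genes on level removed. The called genes cover several stages of division: Kif11, which pushes the spindle poles apart; Kif2a and Kif2c, which take microtubules apart; Kif4 and Kif22, which bind chromosomes; Kif18b, which acts on astral microtubule ends; and Kif14, Kif20a, Kif20b and Kif23, which act in the midzone and in cytokinesis. Differences of the 10 ran from 0.79 to 1.52.

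Kif4, a chromokinesin that also shortens the central spindle, read 8.76 and 8.74 on the RBP arrays and 7.44 and 7.03 on the IgG arrays. The RBP arrays almost coincided and both stood above both IgG arrays, by 1.52 ± 0.18 (SE), or 2.86-fold (limma adjusted p = 0.00575). Kif2c, the centromeric microtubule depolymerase, read 9.22 and 9.13 in the RBP samples and 8.03 and 7.71 in the IgG samples. Its difference was 1.30 ± 0.17 (limma adjusted p = 0.00631), and the groups were again apart. Kif14, a kinesin needed to finish cytokinesis, read 9.25 and 9.16 in the RBP samples and 8.04 and 7.92 in the IgG samples, a difference of 1.23 ± 0.15 (limma adjusted p = 0.0057). A second Kif14 probe set lay below background, at 3.49 and 3.29 in the RBP samples and 3.99 and 3.50 in the IgG samples, and with the mean of both probe sets the gene was no longer called (0.43, adjusted p = 0.106). Kif20b, a kinesin of late cytokinesis, read 8.85 and 8.72 in the RBP samples and 7.76 and 7.44 in the IgG samples. It was 2.27-fold higher (1.18 ± 0.17, limma adjusted p = 0.00758) with no overlap.

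Kif11 and Kif20a had smaller differences. Kif11, the kinesin-5 motor that separates spindle poles, read 10.21 and 10.37 in the RBP samples and 9.36 and 9.59 in the IgG samples, a difference of 0.82 ± 0.16 (limma adjusted p = 0.0164). Kif20a, which carries the passenger complex to the midzone, read 10.07 and 10.05 in the RBP samples and 9.27 and 9.01 in the IgG samples, a difference of 0.92 ± 0.16 (limma adjusted p = 0.0112). In both genes the gap between groups was wider than the gap within either group. Kif22, Kif18b and Kif23 differed by 1.0, 0.82 and 0.79. Kif23 is the motor subunit of centralspindlin, and its partner Racgap1 differed by 1.29 ± 0.16.

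The depolymerases of the kinesin-13 family did not share 1 pattern. Kif2a read 9.67 and 9.84 in the RBP samples and 8.78 and 8.85 in the IgG samples, a difference of 0.94 ± 0.15 (limma adjusted p = 0.00929), close in size to that of several other mitotic kinesins. Kif2b lay under the background level in both groups, at 4.33 and 4.30 in the RBP samples and 4.55 and 4.72 in the IgG samples, and was not called (-0.32 ± 0.15, limma adjusted p = 0.147). Above background the mitotic kinesins Kif15 and Kif18a were not called. Kif15, a motor that assists Kif11 at the spindle, read 9.66 and 9.84 in the RBP samples and 9.28 and 9.35 in the IgG samples (0.43 ± 0.15, limma adjusted p = 0.0802). Kif18a, which damps the movements of aligned chromosomes, had overlapping groups and a difference of 0.10 ± 0.18. Kif2c, Kif4 and Kif14 stayed called when any 1 array was left out. Without RBP replicate 1 the adjusted p was 0.0556 for Kif20b, 0.0625 for Kif22, 0.0576 for Kif2a, 0.085 for Kif20a, 0.0863 for Kif11, 0.115 for Kif18b and 0.181 for Kif23. Without RBP replicate 2 it was 0.0634 for Kif22, 0.0839 for Kif2a, 0.0759 for Kif20a, 0.128 for Kif11, 0.101 for Kif18b and 0.0913 for Kif23.

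The promoters of the mitotic kinesins shared a short element that the choice of genes had not used. The cell cycle homology region (CHR), TTTGAA, is bound by the DREAM and MuvB complexes, which switch genes of G2 and mitosis on and off. It was searched on both strands of the 300 bases covering 250 before to 50 after each start (RefSeq, GRCm38.p6), available for 47 of the 59 motor genes. It was present in 9 of 12 mitotic kinesin promoters (75%), in 4 of 35 promoters of the other motor genes (11.4%: Dctn1, Kif1a, Kif26b and Kif27), in 17.3% of 15563 genes on the arrays and in 20.2% of 27025 genes with a promoter. The CCAAT letters, often found near it, were in 7 of the 12 (58.3%), beside 41.1% of all promoters. Of the 9 mitotic kinesins with a match, 8 were called higher and Kif15 was not, and of the 3 without, Kif2a was called and Kif18a and Kif2b were not. The arrays measured precipitated RNA and not promoter use, and a match of letters describes only the sequence. Kif11, Kif15 and Kif22 show the element shortly before the start, and the transport kinesin Kif3a, the motor gene with the largest difference, is given for contrast with no match in its window. Each line holds the 100 bases before the start, on the gene's own strand, with the match in capitals (TTCAAA is the element on the other strand). They lie at chr19:37376282-37376381 (plus strand) for Kif11, chr9:122950981-122951080 (plus) for Kif15, chr7:127042421-127042520 (minus) for Kif22 and chr11:53567269-53567368 (plus) for Kif3a.
Kif11: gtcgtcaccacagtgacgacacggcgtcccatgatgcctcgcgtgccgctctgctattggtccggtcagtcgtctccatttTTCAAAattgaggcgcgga
Kif15: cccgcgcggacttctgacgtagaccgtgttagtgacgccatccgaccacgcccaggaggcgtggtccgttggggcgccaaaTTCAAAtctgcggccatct
Kif22: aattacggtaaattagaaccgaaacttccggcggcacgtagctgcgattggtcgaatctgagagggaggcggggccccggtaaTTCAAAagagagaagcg
Kif3a: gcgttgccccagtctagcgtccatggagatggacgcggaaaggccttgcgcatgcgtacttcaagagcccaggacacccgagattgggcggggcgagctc
The first base of the match was at -19 in Kif11, -19 in Kif15 and -17 in Kif22, counted from the start.

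Transport kinesins were mostly higher in the RBP samples and included Kif3a, with the largest difference of the 59 genes. Of 13 genes 9 were called higher and 0 lower, with a median difference of 1.06. The share of all genes called higher was 23.8%. The called genes were the kinesin-2 subunits Kif3a, Kif3b and Kif3c and the related Kif17, the kinesin-1 heavy chain Kif5b, and the kinesin-3 vesicle motors Kif1b, Kif13a, Kif13b and Kif16b.

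Kif3a, 1 of the paired motor subunits of heterotrimeric kinesin-2 that builds cilia and moves vesicles, read 7.24 and 7.20 in the RBP samples and 5.30 and 5.08 in the IgG samples. The gap of 2.03 ± 0.15 (4.08-fold, limma adjusted p = 0.00558) ranked 33 among all genes by signed difference. Both IgG arrays were under the background level, so the size of this fold rests on a background reading. Its partner Kif3b, which pairs with Kif3a, read 8.04 and 7.83 in the RBP samples and 6.34 and 6.31 in the IgG samples, a difference of 1.61 ± 0.15 (limma adjusted p = 0.00558). Kif3c, an alternative partner of Kif3a, read 6.15 and 6.02 in the RBP samples and 5.41 and 5.28 in the IgG samples. Its difference was 0.74 ± 0.15 (limma adjusted p = 0.0172), with the IgG mean again under background. Kifap3, the non-motor subunit of the same complex, read 7.38 and 7.36 in the RBP samples and 6.58 and 6.06 in the IgG samples (1.05 ± 0.21, limma adjusted p = 0.0166). The Kifap3 call was lost without RBP replicate 1 (adjusted p = 0.0857) or RBP replicate 2 (0.0765), with quantile normalization (0.0587) and with the trend on level removed (0.0956). Kif17, which also works as a kinesin-2 motor, read 6.02 and 5.52 in the RBP samples and 4.98 and 5.09 in the IgG samples. Its IgG levels were under background, and its call (0.73 ± 0.21, limma adjusted p = 0.0456) was lost on leaving out any 1 of the 4 arrays, with adjusted p of 0.0594 to 0.308.

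Kif13a, a kinesin-3 motor of recycling endosomes, read 9.02 and 8.71 in the RBP samples and 7.19 and 6.90 in the IgG samples. It was 3.54-fold higher (1.82 ± 0.19, limma adjusted p = 0.00558), and its groups were farther apart than either pair of replicates. Kif1b, a carrier of mitochondria and vesicles, read 7.66 and 7.36 in the RBP samples and 6.07 and 5.97 in the IgG samples (1.49 ± 0.17, limma adjusted p = 0.0056). Kif16b, a motor of early endosomes, read 9.0 and 8.55 in the RBP samples and 7.36 and 7.24 in the IgG samples (1.47 ± 0.20, limma adjusted p = 0.00648). Its relative Kif13b differed by 1.06 and was called too. Kif1c, another vesicle motor of this family, differed by 0.47 ± 0.15 without a call (limma adjusted p = 0.0601). Kif1a, known as a motor of synaptic vesicle precursors in neurons, was under background on average, at 5.14 and 5.09 in the RBP samples and 5.69 and 5.27 in the IgG samples (-0.37 ± 0.19, limma adjusted p = 0.185). Against IgG replicate 1 alone Kif1a was called lower (-0.58, limma adjusted p = 0.0323).

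Within kinesin-1, the heavy chain of most tissues and the chains known from neurons differed in whether they were measurable. Kif5b, the widely used heavy chain, read 10.10 and 10.08 in the RBP samples and 8.82 and 8.44 in the IgG samples, a difference of 1.46 ± 0.18 (2.75-fold, limma adjusted p = 0.00584). The neuronal chain Kif5a read 5.07 and 5.19 in the RBP samples and 5.40 and 5.36 in the IgG samples, and Kif5c read 5.23 and 5.29 in the RBP samples and 5.23 and 5.24 in the IgG samples. Neither was called (limma adjusted p = 0.229 and 0.907), and both lay at background. Among transport kinesins the calls of Kif13b (adjusted p = 0.0614) and Kif3c (0.162) were lost without RBP replicate 1, and that of Kif3c (0.0998) without RBP replicate 2.

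The kinesin light chains, which tie kinesin-1 to its cargo, went in different directions. Klc1 read 8.93 and 8.77 in the RBP samples and 7.82 and 8.01 in the IgG samples and was higher by 0.94 ± 0.16 (limma adjusted p = 0.0103). Klc4 read 6.60 and 6.32 in the RBP samples and 6.09 and 6.04 in the IgG samples, without overlap but without a call (0.39 ± 0.16, limma adjusted p = 0.118). Klc3, best known from the sperm tail, read 5.65 and 5.74 in the RBP samples and 6.54 and 6.24 in the IgG samples. It was the 1 motor gene called lower (-0.69 ± 0.17, limma adjusted p = 0.0285), at a level just above background. Without RBP replicates 1 and 2 the adjusted p was 0.0927 and 0.0565 for Klc1 and 0.199 and 0.137 for Klc3. Neither gene was called after quantile normalization (limma adjusted p = 0.145 for Klc1 and 0.17 for Klc3). The same held with the trend of all genes on level removed (limma adjusted p = 0.555 for Klc1 and 0.073 for Klc3).

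Of the 11 other kinesins, 3 were called higher and 0 lower, and the median difference was 0.05. The share called higher was 27.3%, near the 23.8% of all genes. Kif21b and Kif21a, kinesin-4 motors that restrain microtubule growth, were both higher. Kif21b read 9.01 and 8.73 in the RBP samples and 7.32 and 7.45 in the IgG samples (1.48 ± 0.17, limma adjusted p = 0.0056). Kif21a read 7.57 and 7.40 in the RBP samples and 6.14 and 6.29 in the IgG samples (1.27 ± 0.15, limma adjusted p = 0.00582). Kif24, a centriolar kinesin that restrains the growth of cilia, read 8.55 and 8.75 in the RBP samples and 7.73 and 7.69 in the IgG samples (0.94 ± 0.15, limma adjusted p = 0.00958). Its call was lost without RBP replicate 1 (adjusted p = 0.0553) and without RBP replicate 2 (0.087). Kif7, a regulator of Hedgehog signalling at the tip of the cilium, gave nearly the same level throughout, 7.11 and 7.08 in the RBP samples and 7.04 and 7.05 in the IgG samples (0.05 ± 0.14, limma adjusted p = 0.816). The remaining 7, Kif6, Kif9, Kif12, Kif19a, Kif26a, Kif26b and Kif27, differed by -0.36 to 0.11 without a call, and Kif12 was called lower against IgG replicate 1 alone (-0.55, limma adjusted p = 0.036).

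**Figure D2:**
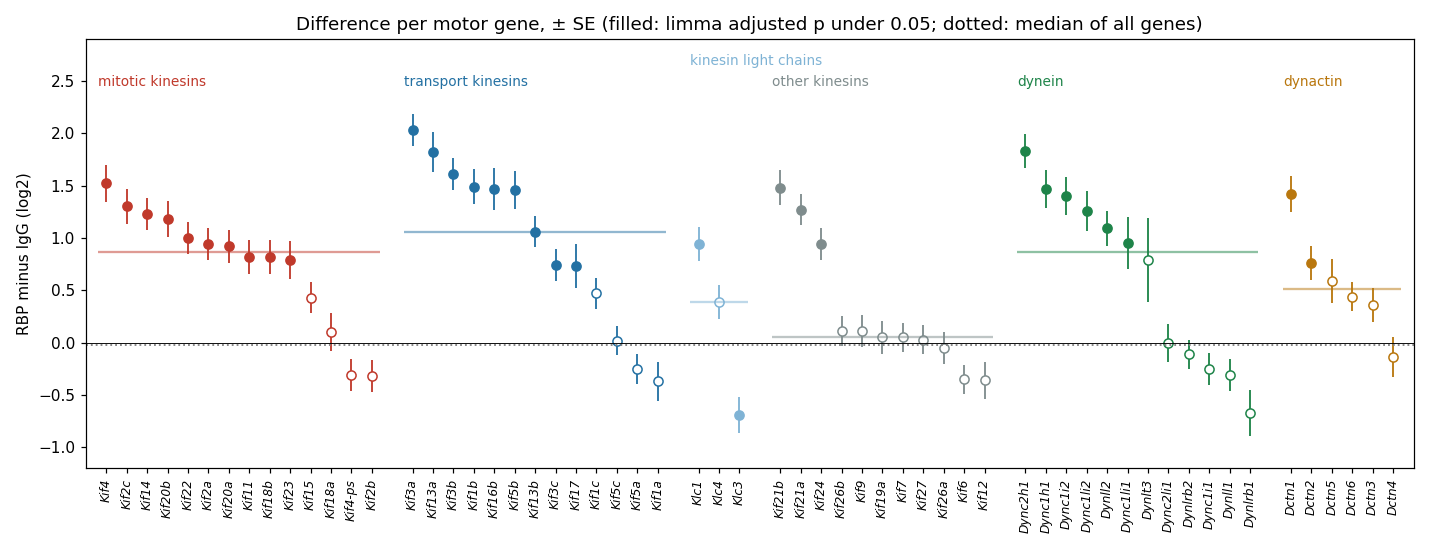
RBP minus IgG difference (log2, y axis) of each motor gene with its SE, by role, filled where limma called it and open where not. Coloured lines are the medians of the roles, 0.87 for mitotic kinesins, 1.06 for transport kinesins, 0.39 for light chains, 0.05 for other kinesins, 0.87 for dynein and 0.52 for dynactin, and the dotted line is the median of all genes, -0.02.

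Of the 12 dynein genes 6 were called higher and 0 lower, with a median difference of 0.87. Over all genes 23.8% were called higher. The dynein genes were spread in level around a median of 8.31. At mean levels of 8 to 9 lay 3 of them, with 3 called, beside 56.4% of all genes. At levels of 4 to 5 lay 3, with 0 called, beside 0.783% of all genes. The others lay between or above these levels. Without RBP replicate 1 the calls were 3, and without IgG replicate 2 the median was 0.40. Split by symbol stem after the values had been seen, 5 of the 7 Dync genes (heavy, intermediate and light intermediate chains) were called, with a median of 1.26. Of the 5 Dynl genes (light chains) 1 was called, with a median of -0.11, and the difference between the stems was not tested.

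Dync1h1, the heavy chain that carries the motor of cytoplasmic dynein, read 11.24 and 11.03 in the RBP samples and 9.52 and 9.82 in the IgG samples. It was 2.77-fold higher (1.47 ± 0.18, limma adjusted p = 0.0057) with no overlap. Dync2h1, the heavy chain of the dynein that returns cargo along cilia, read 7.34 and 7.33 in the RBP samples and 5.36 and 5.63 in the IgG samples, a difference of 1.83 ± 0.16 (limma adjusted p = 0.00558). Its IgG levels lay at about background. Dync2li1, the light intermediate chain of the same ciliary motor, lay under background with a difference of -0.00 ± 0.18.

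The intermediate chains, which link the heavy chain to dynactin, parted by level. Dync1i2, the form of most tissues, read 9.22 and 9.55 in the RBP samples and 8.08 and 7.90 in the IgG samples (1.40 ± 0.18, limma adjusted p = 0.0061). Dync1i1, the neuronal form, lay under background at 4.08 and 4.23 in the RBP samples and 4.38 and 4.43 in the IgG samples (-0.25 ± 0.15, limma adjusted p = 0.234). The light intermediate chains, which hold cargo adaptors, were both called. Dync1li2 read 8.74 and 8.36 in the RBP samples and 7.21 and 7.37 in the IgG samples (1.26 ± 0.19, limma adjusted p = 0.00769). Dync1li1 read 9.26 and 9.57 in the RBP samples and 8.78 and 8.16 in the IgG samples (0.95 ± 0.25, limma adjusted p = 0.0354). The IgG arrays of Dync1li1 were widely spaced. Its call was lost without RBP replicate 1 (adjusted p = 0.0844), RBP replicate 2 (0.17) or IgG replicate 2 (0.051), and that of Dync1li2 without RBP replicate 1 (0.0542).

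Among the light chains, close relatives differed in their calls. Dynll1 and Dynll2 are the LC8 light chains, near-identical small proteins that bind dynein and many other partners. Dynll2 read 9.59 and 9.43 in the RBP samples and 8.57 and 8.28 in the IgG samples and was higher by 1.09 ± 0.17 (limma adjusted p = 0.00882), a call lost without RBP replicate 1 (0.0687). Dynll1 read 10.55 and 10.67 in the RBP samples and 10.99 and 10.84 in the IgG samples, with both RBP arrays below both IgG arrays (-0.31 ± 0.15, limma adjusted p = 0.167). Dynll2 was thus called higher and Dynll1 was not called, and the difference between the paralogues was not tested. The Dynll2 call was lost with quantile normalization (0.56, limma adjusted p = 0.102) and with the level trend removed (0.31, limma adjusted p = 0.301). With that trend removed Dynll1 was called lower (-0.89, limma adjusted p = 0.0266). Dynlrb1, a roadblock light chain, read 9.25 and 9.37 in the RBP samples and 10.26 and 9.71 in the IgG samples (-0.67 ± 0.22, limma adjusted p = 0.065). Dynlrb1 was called lower against IgG replicate 1 alone (-0.95, adjusted p = 0.0126), and also after quantile normalization (-1.10, adjusted p = 0.028). Dynlt3, a Tctex-type light chain, read 7.39 and 7.60 in the RBP samples and 7.34 and 6.07 in the IgG samples. The low IgG replicate 2 set its difference of 0.79 ± 0.40 (limma adjusted p = 0.182), and against IgG replicate 2 alone the gene was called higher (1.42, adjusted p = 0.00963). The related Tctex genes Dynlt1a, Dynlt1b, Dynlt1c and Dynlt1f share 2 probe sets, which cannot be assigned to 1 gene and are not among the 59. These read 9.35 and 9.54 in the RBP samples and 10.41 and 10.08 in the IgG samples, and 9.32 and 9.62 in the RBP samples and 10.47 and 10.07 in the IgG samples. Both were lower in the RBP samples, by -0.80 ± 0.18 and -0.80 ± 0.21 (limma adjusted p = 0.028 and 0.0397 over 23410 probe sets with a symbol).

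Dynactin, the cofactor that lets dynein move far and bind cargo, had 2 of 6 subunit genes called higher, 0 lower and a median difference of 0.52. Over all genes 23.8% were called higher, and 56.4% at mean levels of 8 to 9. The dynactin median was 0.08 after quantile normalization and -0.21 with the trend on level removed. Dctn1, the p150Glued arm that touches dynein and the microtubule, read 9.83 and 9.50 in the RBP samples and 8.26 and 8.25 in the IgG samples (1.42 ± 0.17, limma adjusted p = 0.00571). Dctn2, the dynamitin of the shoulder, read 8.71 and 8.94 in the RBP samples and 8.0 and 8.13 in the IgG samples (0.76 ± 0.16, limma adjusted p = 0.0193). The Dctn1 groups lay far apart, whereas the Dctn2 call was lost without RBP replicate 1 (adjusted p = 0.0875) and without RBP replicate 2 (0.165).

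The other subunit genes were not called. Dctn3, the small shoulder subunit, read 7.65 and 7.69 in the RBP samples and 7.43 and 7.19 in the IgG samples (0.36 ± 0.16, limma adjusted p = 0.135). Of the pointed-end complex, Dctn5 read 9.72 and 9.90 in the RBP samples and 9.46 and 8.98 in the IgG samples (0.59 ± 0.21, limma adjusted p = 0.0784). Dctn5 was called higher against IgG replicate 2 alone (adjusted p = 0.0202). Dctn6 read 8.98 and 9.06 in the RBP samples and 8.61 and 8.55 in the IgG samples (0.44 ± 0.14, limma adjusted p = 0.0655). In these 3 genes both RBP arrays stood above both IgG arrays by less than the test required. Dctn4 overlapped between groups, at 9.44 and 9.53 in the RBP samples and 9.85 and 9.40 in the IgG samples (-0.14 ± 0.19, limma adjusted p = 0.599).

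The difference of all genes followed their mean level, and the motor genes were read against that trend. Among genes with a mean log2 level of 4 to 5, 0 of 6 motor genes and 0.783% of all genes were called higher. At levels of 5 to 6 the counts were 2 of 10 motor genes and 4.06% of all genes, and at 6 to 7 they were 4 of 8 and 23.4%. At 7 to 8 they were 5 of 9 motor genes and 47.1% of all genes, at 8 to 9 14 of 15 and 56.4%, at 9 to 10 5 of 9 and 57.8%, and from 10 up 1 of 2 and 47.2%. Each bin holds under 20 motor genes.

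With the loess trend of all genes on level subtracted, 11 motor genes were called higher (5.01% of all genes) and 3 lower (5.34% of all genes). The 11 were the transport kinesins Kif3a, Kif3b, Kif3c, Kif13a, Kif1b, Kif1c and Kif17, the growth-restraining Kif21a and Kif21b, and the dynein heavy chains Dync1h1 and Dync2h1. The 3 lower were Dctn4 (-0.87, adjusted p = 0.0468), Dynll1 (-0.89, adjusted p = 0.0266) and Dynlrb1 (-1.39, adjusted p = 0.0223). Of the 11, 10 had been called as reported and Kif1c was new. Transport kinesins had 7 higher calls of 13 and a median of 0.72, whereas mitotic kinesins had 0 higher and 0 lower by limma (3 and 1 at an unadjusted p under 0.05) and a median of 0.15. Dynein had 2 higher and 2 lower calls, and dynactin 0 higher and 1 lower by limma (1 and 1 at an unadjusted p under 0.05).

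**Figure D3:**
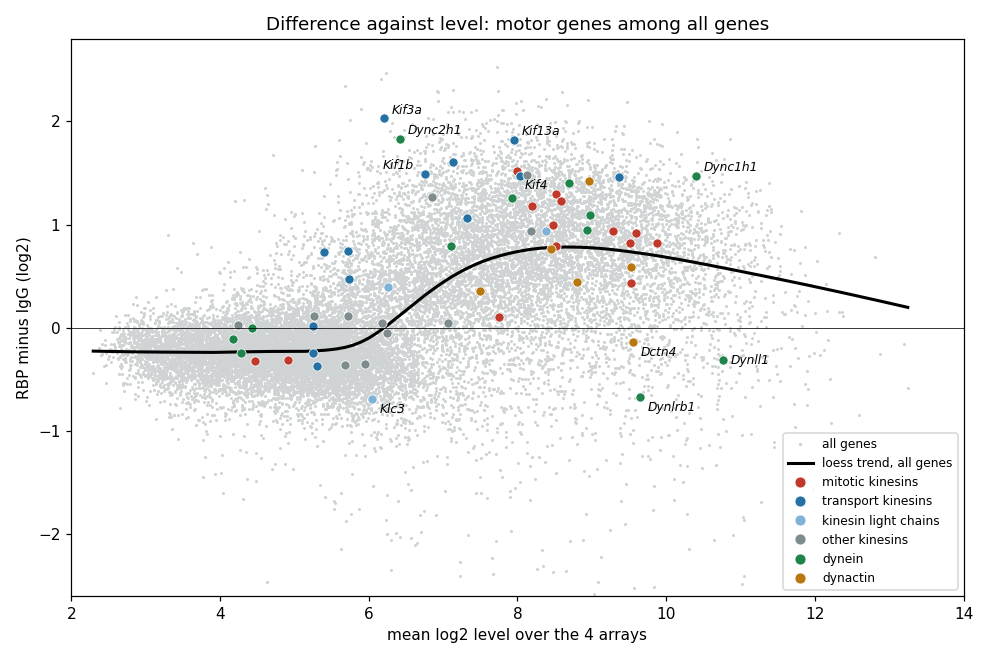
RBP minus IgG difference (log2, y axis) against mean log2 level over the 4 arrays (x axis) for all genes in grey, their loess trend as a line, and the 59 motor genes coloured by role. Kif3a at 2.03 and Dync2h1 at 1.83 lie far above the trend at their levels, most mitotic kinesins lie near it, and Dynlrb1 at -0.67 and Dynll1 at -0.31 lie below it.

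Scaling moved the roles unequally. Quantile normalization, which makes the distributions of the 4 arrays equal, gave 20 motor genes called higher (11.1% of all genes) and 1 lower (2.77%). Of the 20, 19 had been called as reported and Kif1c was new, and the gene called lower was Dynlrb1 in place of Klc3. Transport kinesins then had 10 calls of 13, mitotic kinesins 3 of 14, dynein 4 of 12 and dynactin 1 of 6. Centring on the chemosensory receptor genes raised the median of all genes to 0.29 and gave 37 motor genes called higher (35.6% of all genes) and 0 lower by limma (1.59% of all genes; 0 motor genes also at an unadjusted p under 0.05).

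**Figure D4:**
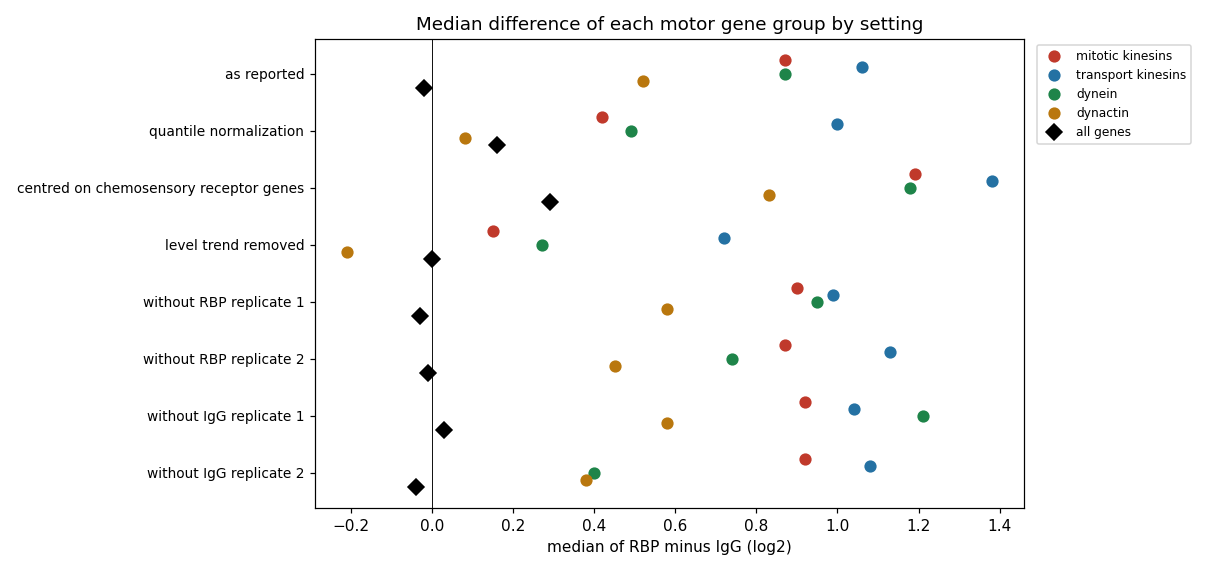
Median RBP minus IgG difference (log2, x axis) of 4 roles and of all genes (diamonds) as reported, under 3 other scalings and with each array left out (y axis). Transport kinesins stay between 0.72 and 1.38, while mitotic kinesins reach 0.15 and dynactin -0.21 with the level trend removed.

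Partners of these motors, listed with earlier results known, are given by their counts, beside 23.8% of all genes called higher and 47.1% to 57.8% at mean levels of 7 to 10. Of 13 dynein regulators and cargo adaptors 7 were higher and 0 lower (median 1.12), led by Hook1, an adaptor of dynein for endosomes, at 8.23 and 8.21 in the RBP samples and 6.50 and 6.26 in the IgG samples. Numa1, which anchors dynein at spindle poles, read 11.27 and 11.04 in the RBP samples and 9.66 and 9.73 in the IgG samples. Of 10 kinesin cargo adaptors 4 were higher and 0 lower (median 0.62), with Trak2, a mitochondrial adaptor, different by 1.33 and Plekhm2, a lysosomal adaptor, by 1.12. Of 8 genes of the spindle midzone and passenger complex 6 were higher and 0 lower (median 0.90), led by Racgap1 at 9.62 and 9.84 in the RBP samples and 8.52 and 8.36 in the IgG samples and by Ect2, which it recruits in cytokinesis, with a difference of 1.06. Of 9 genes of microtubule plus ends and severing 5 were higher and 0 lower (median 1.03), led by Clip1 (1.72) and Ckap5 (1.40). Among 4 genes of dynactin's actin-like filament and its capping protein, Actr1a was higher by 1.03. Cenpe, the kinetochore kinesin whose symbol the choice did not cover, read 10.36 and 10.16 in the RBP samples and 8.72 and 8.34 in the IgG samples (1.73 ± 0.19, limma adjusted p = 0.0056). Its list, with Kifap3 and the C-terminal kinesins Kifc2 and Kifc3, had 2 of 4 genes higher and 0 lower (median 0.37). At an unadjusted p under 0.05 these were 2 and 1. Kifc2 (-0.30) and Kifc3 (-0.39) were not called, with both RBP arrays below both IgG arrays.

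The tubulins, whose alpha and beta forms make up the track itself, were not called in the fit reported. Of 16 listed genes 13 were measured, among them the gamma, delta and epsilon forms Tubg1, Tubg2, Tubd1 and Tube1. Of these 13 tubulin genes 11 lay above background, and 0 were higher and 0 lower by limma (3 and 0 at an unadjusted p under 0.05). This depended on the scaling. With chemosensory centring Tuba4a, Tuba8, Tubg1, Tubg2, Tubd1 and Tube1 were called higher (limma adjusted p of 0.00742 to 0.0373), beside 35.6% of all genes. Over all genes 23.8% were called higher and 6.54% lower. The tubulins had a median difference of 0.12 and a range of -0.21 to 0.52, the highest being Tube1. Tubb5, a major beta tubulin of dividing cells, read 12.38 and 12.49 in the RBP samples and 12.24 and 12.39 in the IgG samples, with overlapping groups.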

How the data were processed

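RNA co-precipitated from early erythroid progenitors was measured on 4 arrays, 2 with the RBP antibody and 2 with control IgG, grouped by sample title. Each deposited value is a probe set's log2 level, which the authors computed with RMA in affy, per the submitters' processing notes. For versions and background correction the sources used here say nothing, and the log2 scale was taken from the range of the values. No scanner files were used. The number of arrays limits the precision.

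Of 35556 probe sets, 21789 had 1 symbol in the platform annotation, 1621 several and 12146 none. The test of RBP minus IgG used limma 3.58.1 under R 4.3.3 (lmFit and eBayes, two-sided, Benjamini-Hochberg over 19938 genes, threshold 0.05). Residual degrees of freedom were 2 and prior degrees of freedom 3.76, and the median SE was 0.17. An exact permutation test of 2 against 2 arrays cannot go below p = 0.333. The fit was tested on simulated data. Role medians were not tested.

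The members, role lists, partner lists and alternatives were chosen with earlier results of these data known. Given in full were, per role, the 4 called genes with the largest difference, the 2 with the highest level, every gene called lower and sets of close relatives. Of each partner list up to 2 called genes were named, and Kif15, Kif1a, Kif7, Dynlrb1, Dynlt3, Kifap3 and Tubb5 were described with values after these had been seen. All 59 Entrez identifiers matched RefSeq (GRCm38.p6), which was used for names and promoters, and changed 0 symbols.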

Additional observations from a re-analysis of the deposited data

Results flagged for a closer look

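Of the probe sets that stood for no gene because a brighter one existed, the second Kif7 probe set was the 1 picked out, as a reading above the control in data the comparisons did not use. It read 7.11 and 6.82 in the RBP samples and 6.50 and 6.68 in the IgG samples, without overlap, and differed by 0.38 ± 0.17 (limma adjusted p = 0.152 over 23410 probe sets). The brighter Kif7 probe set differed by 0.05 ± 0.14. Neither was called.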

How the results depend on the processing

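Besides the fit reported, 11 settings were tried. With quantile normalization the higher calls were 20 for motor genes, 3 for mitotic kinesins and 1 for dynactin, and the medians were 0.42 for mitotic kinesins, 0.49 for dynein and 0.08 for dynactin. Centring on the chemosensory genes gave 0 lower calls by limma (0 at an unadjusted p under 0.05), 5 higher calls for dynactin, and medians of 1.19 for mitotic kinesins, 1.15 for transport kinesins with light chains, 1.18 for dynein and 0.83 for dynactin. With the level trend removed, higher calls were 11 for motor genes, 0 for mitotic kinesins, 2 for dynein and 0 for dynactin (at an unadjusted p under 0.05, 3 mitotic and 1 dynactin), with 3 lower calls and medians of 0.15, 0.68, 0.27 and -0.21 for mitotic, transport with light chains, dynein and dynactin. The filter at background gave medians of 1.06 for transport kinesins with light chains and 1.09 for dynein, with no value for the 10 genes under it. Leaving out each array in turn gave 15 to 32 higher and 0 to 4 lower motor genes, 3 to 10 higher mitotic kinesins, 6 to 9 higher transport kinesins with light chains, 3 to 7 higher dynein and 1 to 3 higher dynactin genes. The medians then ran from 0.77 to 1.0 for transport kinesins with light chains, 0.40 to 1.21 for dynein and 0.38 to 0.58 for dynactin. Of the 59 genes, the sign turned for 10 with quantile normalization, 7 with chemosensory centring and 8 with the trend removed, and for 1, 4 and 1 without RBP replicate 2, IgG replicate 1 and IgG replicate 2. These counts leave out values that rounded to 0, as for Dync2li1 in the fit reported (-0.00) and Kif19a without RBP replicate 2 (-0.00). Kif15 (-0.05, -0.30), Kif18a (-0.30, -0.60) and Kif7 (-0.13, -0.43) turned with quantile normalization and with the trend removed. Among the 37 genes given in full, it turned for Dctn2 (-0.02), Dctn3 (-0.27), Dctn5 (-0.14) and Dctn6 (-0.34) with the trend removed, and for Dctn6 (-0.10), Dync1i1 (0.12), Kif2b (0.04) and Kif5a (0.08) with quantile normalization. Of these 37 it also turned for Dctn4 (0.18), Dync1i1 (0.06), Dynll1 (0.01) and Kif5a (0.07) with chemosensory centring, for Dctn4 (0.08 without IgG replicate 1, with a range of -0.36 to 0.08 over the omissions) and for Kif5c (-0.01) without RBP replicate 2. Of all genes that turned, Dctn2 alone had been called, and the cause was not tested. Over all genes, higher and lower calls were 4741 and 1304 as reported, 2207 and 553 with quantile normalization, 7095 and 317 with chemosensory centring, 999 and 1065 with the trend removed, 1724 and 99 without RBP replicate 1, and 2058 and 151 without RBP replicate 2, and lower calls were 2905 without IgG replicate 2. Quantile normalization moved the median of all genes to 0.16 and chemosensory centring to 0.29. The share of higher against lower calls therefore depends on the scaling. With the replicate number as a block, 33 motor genes were higher and 2 lower (Klc3 and Dynlrb1), and over all genes 5885 were higher and 2199 lower. The labels give no reason to pair equal numbers, and with 2 pairs the correlation of deviations, 0.255, does not settle the pairing.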

Other observations

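The axonemal dyneins, which bend motile cilia and flagella and lie outside the cytoplasmic motors, had 20 measured genes with a median difference of -0.17. Of these 1 was higher and 2 lower, beside 23.8% and 6.54% of all genes. Only 9 of the 20 lay above background, where 36.5% of all genes were called higher. At or below background 0.83% of all genes were, so the 23.8% is no matched share for this list. Dnah8, an outer-arm heavy chain known from sperm, read 8.19 and 8.49 in the RBP samples and 6.64 and 6.77 in the IgG samples, a difference of 1.64 ± 0.17 (limma adjusted p = 0.00558). Dnah3 read 7.04 and 6.97 in the RBP samples and 7.53 and 7.65 in the IgG samples (-0.58 ± 0.15, limma adjusted p = 0.0321), and 33 probe sets carried its symbol. With the mean of all its probe sets Dnah3 was no longer called (-0.29, limma adjusted p = 0.174). Dnah9, under background on average, read 4.88 and 5.02 in the RBP samples and 5.47 and 5.44 in the IgG samples (-0.50 ± 0.15, limma adjusted p = 0.0486). The Dnah9 call was lost with quantile normalization (-0.17, limma adjusted p = 0.515) and with the level trend removed (-0.28, limma adjusted p = 0.283).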
